A study of Mus musculus with 2 samples.

Results

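The netrin guidance system was examined through 8 mouse genes: the secreted ligands Ntn1 and Draxin, the receptors Dcc and Neo1, and the receptors Unc5a, Unc5b, Unc5c and Unc5d. A GLORI-detected m6A site was assigned to a gene when it lay inside the gene interval on the gene's own strand in GENCODE M21 on GRCm38. By this rule the 8 genes held 627 of the 219409 sites that were listed in the cerebellum or the cerebrum. The cerebellum library contributed 175 of its 79355 sites and the cerebrum library 511 of its 188295, and 59 positions were listed in both. Of the 627 sites, 150 lay on exons of coding isoforms, 469 in introns and 8 on exons of other transcripts of these genes.

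GLORI deaminates unmethylated adenosines with glyoxal and nitrite, so that they are read as G, while m6A is still read as A at single-base resolution. There were 2 libraries, both made from poly(A)+ RNA of a female P0 mouse, 1 from the cerebellum and 1 from the cerebrum. The animal was an F1r hybrid, from a C57 (C57BL/6J) mother and a PWK (PWK/PhJ) father, so both libraries carry both strain alleles, both were labelled GLORI+, and no untreated library was among the samples. Only positions methylated at a rate over 0.1 and read more than 8 times were kept, and neither rates nor counts are given, so the depth is unknown. A position missing from a list may lack m6A, lie in an unexpressed gene, or have had too few reads. In whole tissue, fewer cells of a type and less RNA per cell cannot be told apart. Since each tissue has 1 library, there is neither a replicate error nor a test between tissues, and the intervals below are 95% Wilson intervals, which cover counting error only and treat neighbouring sites as independent.

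Markers of tissue were read from the same lists. All 15 genes of a forebrain list held more exonic sites in the DRACH motif in the cerebrum, and over the list the cerebellum had 31 such sites and the cerebrum 250. Of 13 hindbrain genes, 5 held more in the cerebellum, Cbln1 held more in the cerebrum and 7 held none, Atoh1 and Gabra6 among them, with 47 and 16 sites over the list. Among 9733 coding genes with such a site in either library, 81.2% had more in the cerebrum and 7.75% more in the cerebellum. Xist, which is expressed from the inactive X chromosome of females, held 83 and 80 sites, but chromosome Y also held 14 and 30, although both libraries are labelled female. Among single Y genes, Kdm5d held 1 and 3, Usp9y 0 and 2, Ddx3y and Uty 0 and 1 each, and Eif2s3y none. The source of the chromosome Y sites was not tested, and none of the 8 genes lies on a sex chromosome.

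Netrin-1 is a secreted cue that attracts or repels growing axons and migrating neurons, depending on the receptors they carry. DCC and its relative neogenin, the product of Neo1, mediate attraction, and receptors of the UNC5 family, alone or together with DCC, mediate repulsion. Draxin is a secreted repellent that binds both netrin-1 and DCC. In the newborn brain these genes guide commissural and cortical axons and the migration of cerebellar and cortical neurons. m6A is deposited mostly in the DRACH motif (D is A, G or T in DNA letters, R is A or G, and H is A, C or T, with the methylated A in the middle) and is known to be densest near stop codons and in long last exons.

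The exonic DRACH sites listed in both tissues and lying nearest to the stop codon are shown first, because they are the positions at which both lists name the same base of a guidance mRNA. Each sequence is written 5′ to 3′ on the transcript strand from the GRCm38 RefSeq genome, with 10 nt on either side of the site, and capitals mark the DRACH 5-mer, whose middle A is the listed base. The names give the distance in nt from the last base of the stop codon, negative for upstream. Ntn1 had a single shared site, in its coding sequence (chr11:68385740-68385760, minus strand).
Ntn1 -1444: cagtccgaGAACTacctgcag
The Neo1 sites flank the stop codon within the last exon, in the coding sequence at chr9:58877300-58877320 and chr9:58877289-58877309 and in the 3′ UTR at chr9:58877249-58877269, all on the minus strand.
Neo1 -36: acctggaaGGACTaatgaagg
Neo1 -25: ctaatgaaGGACCtaaatgcc
Neo1 15: cttcgcctGGACAtgactcca
Those of Unc5c lie in the 3′ UTR at chr3:141828889-141828909, chr3:141829055-141829075 and chr3:141831113-141831133, plus strand.
Unc5c 327: gtatggatAAACTttcttaac
Unc5c 493: gaaatcacAGACTtttgctaa
Unc5c 2551: catgtgaaTGACAgtttccaa
Those of Unc5d lie in the last coding exon at chr8:28652838-28652858 and chr8:28652764-28652784 and in the 3′ UTR at chr8:28652499-28652519, minus strand. One more Unc5d sequence, chosen after its position was seen, is the shared site farthest from a stop codon in any of the 8 genes, at chr8:28646957-28646977.
Unc5d -80: gattgggaGGACAcacacgaa
Unc5d -6: ggcaaaatGGACTctagtctg
Unc5d 259: tcaaattcAGACTgccgagga
Unc5d 5801: acttggatGGACTccttagca
The 5-mer GGACT recurred in this set, in Neo1 and in Unc5d.

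Exonic DRACH sites, those in the canonical motif on mRNA, fell on 5 of the 8 genes and spared the other 3. Unc5d held 22 in the cerebellum and 26 in the cerebrum, Dcc 15 and 19, Neo1 14 and 17, Unc5c 4 and 11, and Ntn1 3 and 3. Draxin, Unc5a and Unc5b had none in either library. Over all 20714 coding genes with a complete isoform, 35.4% had an exonic DRACH site in the cerebellum and 45.5% in the cerebrum, and the same 5 guidance genes had one in both. Ranked by the number of such sites, Unc5d stood above 95.3% of the genes with a site in the cerebellum and 94.5% in the cerebrum, Dcc above 90.1% and 89.4%, and Neo1 above 88.9% and 86.9%. Unc5c stood above 52.8% and 75.7%, and Ntn1 above 41.9% and 31.3%. The receptors Dcc, Neo1 and Unc5d thus carried 51 of the 58 sites of the cerebellum and 62 of the 76 of the cerebrum.

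**Figure D1:**
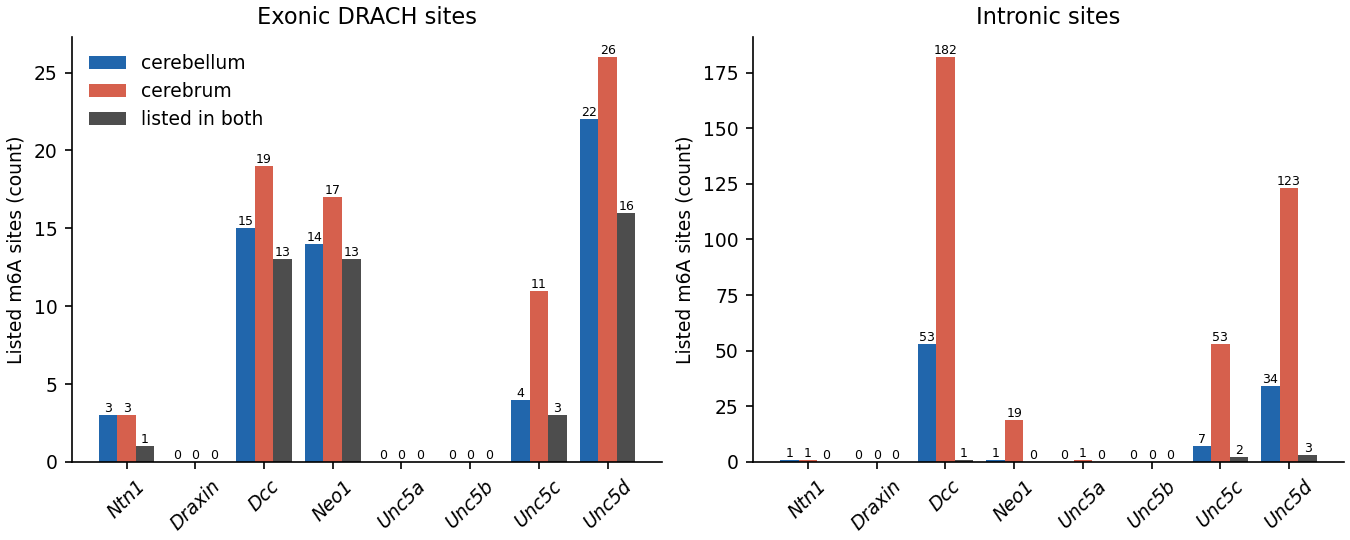
Number of listed m6A sites (vertical axes) in each of the 8 genes, for exonic DRACH sites (left) and intronic sites (right), with the count above each bar. Blue bars are the cerebellum library, red bars the cerebrum library and grey bars positions listed in both. The intronic sites are almost never shared, while within each library most exonic DRACH sites of Dcc, Neo1 and Unc5d are.

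Ntn1, which encodes netrin-1 (chr11:68209364-68400823, minus strand), held few sites for a transcript with 109 DRACH adenosines on its longest isoform. The cerebellum listed 3 of them, 1 in the coding sequence and 2 in the 3′ UTR at 508 and 3302 nt after the stop codon. The cerebrum also listed 3, all in the coding sequence, at -1477, -1444 and -127 nt. Only the site at -1444 nt was common to both, in exon 3 of 8, a long internal exon of 1082 nt. The 3′ UTR of 3642 nt, with 71 DRACH adenosines, thus had 2 listed in the cerebellum and 0 in the cerebrum. Ntn1 also held 7 exonic sites outside DRACH, 1 of them shared, and 1 intronic site in each library.

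Draxin (chr4:148098437-148130698, minus strand), the netrin-binding repellent, had no listed site of any kind, exonic or intronic. Its longest isoform has 119 DRACH adenosines, 93 of them in a 3′ UTR of 4033 nt. Taking 3 counts as the limit that a count of 0 allows, 0 of 119 allows a listed share of up to 2.52% in either library, and the upper end of the 95% Wilson interval was 3.13%. Whether Draxin mRNA was covered by reads cannot be read from the lists.

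Dcc (chr18:71253634-72351069, minus strand), the attractive netrin receptor, held more listed sites than any other of the 8 genes, 74 for the cerebellum library and 215 for the cerebrum library. Most of them were intronic. Its 21 exonic DRACH sites gathered at both ends of the mRNA. At the 5′ end, a pair of shared sites lay in the 5′ UTR in exon 1 (714 nt), at -4593 and -4583 nt, and a further shared site lay in exon 2 (321 nt). From exon 3 to exon 27 no exonic DRACH site was listed, and exon 28 had 1, in the cerebellum only. Coding sites outside DRACH were listed in exons 8, 11, 15, 20, 23 and 24. In exons before the last, first exons included, of all coding genes with a listed site, 3.08% (cerebellum) and 5.36% (cerebrum) of DRACH adenosines were listed. Exon 29, the last exon of 5446 nt, held 11 cerebellum and 16 cerebrum sites, 10 being common to both.

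The last exon of Dcc was itself uneven. A site shared by both libraries was the final base of the stop codon, and 4 more shared sites followed at 34, 61, 82 and 113 nt. Within 1000 nt after the stop codon, the cerebellum listed 7 of 20 DRACH adenosines (35.0%, interval 18.1% to 56.7%) and the cerebrum 11 of 20 (55.0%, 34.2% to 74.2%), including the same 7. From 1351 to 5216 nt after the stop codon lay 79 DRACH adenosines of which neither library listed any. At the far end of the 3′ UTR, the cerebellum listed a site at 5216 nt and the cerebrum one at 5233 nt. In 525 coding genes with a listed site and a 3′ UTR of at least 5000 nt, the cerebellum listed 13.9% and the cerebrum 20.0% over the first 1000 nt, and 2.63% and 4.29% from 2000 to 3000 nt.

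Neo1 (chr9:58874687-59036441, minus strand) encodes neogenin, the relative of DCC that binds netrins and repulsive guidance molecules. Its sites were concentrated on exon 29, the last exon of 2671 nt, which held 13 of 14 exonic DRACH sites in the cerebellum and 16 of 17 in the cerebrum, with 12 shared. The remaining site, also shared, was in exon 2 (318 nt). Around the stop codon, shared sites lay at -36, -25, 15 and 49 nt, and a site at 90 nt was in the cerebrum only. The first 1000 nt of the 3′ UTR had 10 of 21 DRACH adenosines listed in the cerebellum (47.6%, 28.3% to 67.6%), and the cerebrum listed 12 (57.1%, 36.5% to 75.5%), with 9 in common. Beyond 2000 nt none of 10 was listed. Over its whole 3′ UTR, 22.4% (13.0% to 35.9%) and 28.6% (17.8% to 42.4%) of 49 DRACH adenosines were listed, while in the coding sequence it was 3 of 106 in each library.

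Dcc and Neo1 share an exon structure of 29 exons and 53.3% of their aligned residues, and in both genes DRACH sites lay in exon 2 and around the stop codon, but not at aligned bases. Of the 5 coding DRACH sites of this pair that could be placed on an aligned codon of the other gene, none had a DRACH motif there, so no DRACH site could be listed there. Their 11 coding sites outside DRACH also had no DRACH motif and no listed base at the aligned position.

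Unc5a (chr13:54949411-55006018, plus strand) and Unc5b (chr10:60762593-60831581, minus strand), repulsive receptors of which Unc5b also acts in blood vessels, had no DRACH site. Unc5a held 3 sites in the cerebrum, 1 in intron 1 and 2 in the 3′ UTR at 581 and 601 nt after the stop codon, and Unc5b held 1, in exon 10 of 17. None of the 4 was in the cerebellum. Their longest isoforms carry 50 and 105 DRACH adenosines, for which the same limit of 3 counts is 6.00% for Unc5a and 2.86% for Unc5b, with Wilson upper ends of 7.13% and 3.53%. On the opposite strand, sites were listed for Unc5a alone, 2 in the cerebrum, both outside DRACH.

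Unc5c (chr3:141465216-141834924, plus strand), whose loss disturbs the migration of cerebellar granule and Purkinje cells, held 4 exonic DRACH sites for the cerebellum and 11 for the cerebrum, with 3 in both. All 4 of the cerebellum lay in the 3′ UTR in exon 16, at 327, 340, 493 and 2551 nt after the stop codon, and that at 340 nt was the one not listed in the cerebrum. The cerebrum listed 9 in this exon, from 170 to 4438 nt, and 1 each in coding exons 5 (181 nt) and 9 (345 nt). The choice of isoform mattered here: the longest isoform has a 3′ UTR of 6352 nt and 221 DRACH adenosines, of which 1.81% and 4.98% were listed. The isoform with the longest coding sequence ends after 897 nt of 3′ UTR, and 3.03% and 6.06% of its 99 DRACH adenosines were listed. In the other 7 genes the same isoform is the longest by either measure.

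Unc5d (chr8:28646717-29219636, minus strand), a receptor of migrating cortical neurons that also binds FLRT proteins, held the most exonic DRACH sites of the 8 genes. The last exon, exon 18 of 6256 nt, held 20 of the 22 in the cerebellum and 22 of the 26 in the cerebrum, with 14 shared. Coding sites crowded just before the stop codon, at -80 and -6 nt in both libraries, at -69 nt in the cerebellum only and at -31 nt in the cerebrum only. The site at -6 nt falls in codon 955 of 956. Exons before the last held a shared site in the 5′ UTR (exon 1, 395 nt), a shared one in exon 17 (179 nt) and 2 in exon 11 (378 nt) that only the cerebrum listed.

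The 3′ UTR of Unc5d differed in layout from those of Dcc and Neo1. In its first 1000 nt the cerebellum listed 2 and the cerebrum 1 of 28 DRACH adenosines (7.14%, 1.98% to 22.6%; 3.57%, 0.633% to 17.7%). From 4000 to 5000 nt the cerebellum listed 6 and the cerebrum 5 of 21 (28.6%, 13.8% to 50.0%; 23.8%, 10.6% to 45.1%), with 4 in common, where the 525 genes with a long 3′ UTR had 2.45% and 3.64%. This was the Unc5d bin with the highest share in each library, named after its values were seen. The shares were 13.3% and 20.0% from 1000 to 2000 nt and 5.26% and 15.8% from 2000 to 3000 nt. Both libraries had 6.67% from 3000 to 4000 nt and 7.69% from 5000 to 6000 nt. The median distance of the 3′ UTR sites from the stop codon, over either library, was 3373.5 nt in Unc5d, 1318.5 nt in Unc5c, 418.5 nt in Dcc and 460 nt in Neo1. Of the 23 sites in these genes and Ntn1 that lay more than 2000 nt downstream, 15 were in Unc5d. In the first 1000 nt, the cerebrum interval of Unc5d lay below those of Dcc and Neo1, while its cerebellum interval overlapped that of Dcc. Each of these bins holds at most 30 adenosines.

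**Figure D2:**
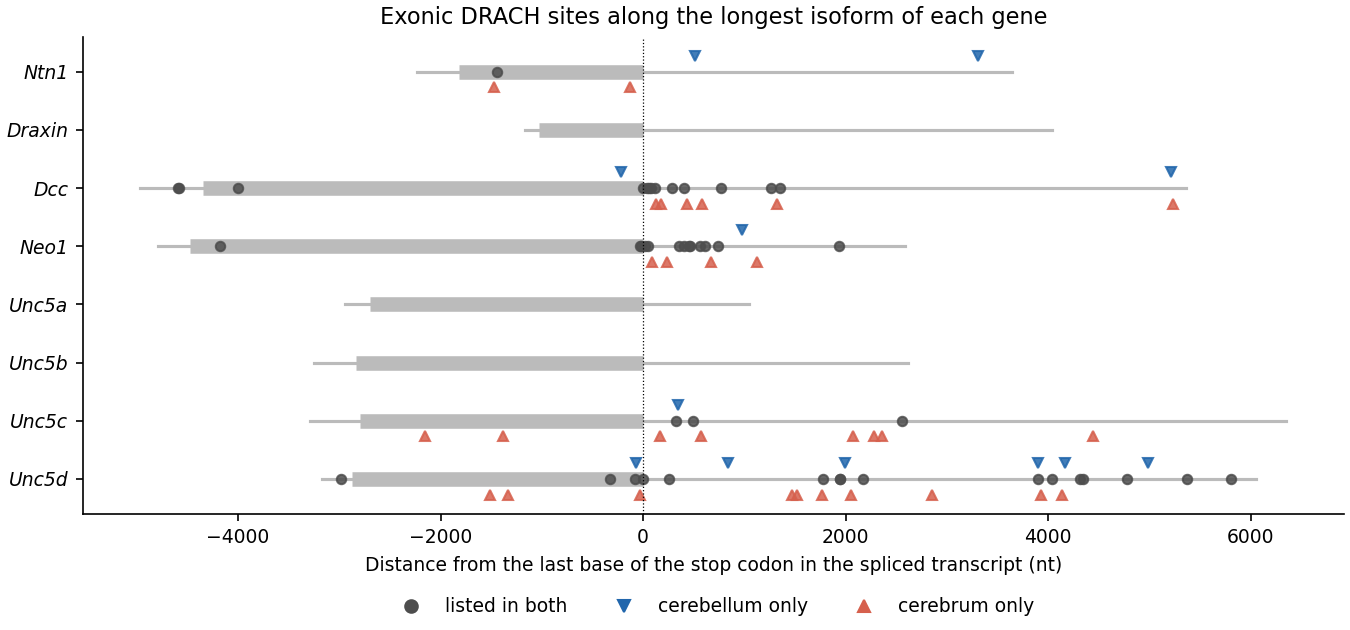
Exonic DRACH sites of the 8 genes placed along the longest isoform, by distance in nt from the last base of the stop codon (horizontal axis, dotted line at 0). Thick grey bars are coding sequence and thin lines UTRs, grey circles are sites listed in both libraries, blue triangles cerebellum only and red triangles cerebrum only. Dcc and Neo1 sites crowd just after the stop codon, while those of Unc5d reach 5801 nt.

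Taken over the 8 genes, the 3′ UTR held 44 of 58 exonic DRACH sites in the cerebellum (75.9%) and 57 of 76 in the cerebrum (75.0%), against 57.3% and 55.8% of the exonic DRACH sites of all coding genes. The coding sequence held 11 and 16, and the 5′ UTR 3 and 3, all 3 of them shared. Within 200 nt of the stop codon lay 12 (20.7%) and 17 (22.4%), close to the 21.9% and 22.0% of all coding genes. The last exon held 50 (86.2%, 75.1% to 92.8%) and 64 (84.2%, 74.4% to 90.7%), where all coding genes had 74.8% and 74.2%. Without Unc5d the 3′ UTR shares were 75.0% and 76.0%.

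To compare genes of different length, listed sites were divided by the DRACH adenosines of the longest isoform. The order in the cerebellum was Unc5d (10.0%, 6.73% to 14.7%), Neo1 (8.86%, 5.35% to 14.3%), Dcc (7.14%, 4.38% to 11.4%), Ntn1 (2.75%, 0.940% to 7.78%) and Unc5c (1.81%, 0.706% to 4.56%). In the cerebrum it was Unc5d (11.9%, 8.23% to 16.8%), Neo1 (10.8%, 6.83% to 16.6%), Dcc (9.05%, 5.87% to 13.7%), Unc5c (4.98%, 2.80% to 8.69%) and Ntn1 (2.75%, 0.940% to 7.78%). The intervals of Unc5d, Neo1 and Dcc overlapped widely in both libraries, as did those of Ntn1 and Unc5c. The cerebellum intervals of the paralogs Unc5d and Unc5c were apart on this isoform and those of the cerebrum met between 8.23% and 8.69%. On the Unc5c isoform with the longest coding sequence, the share of Unc5c was 3.03% (1.04% to 8.53%) for the cerebellum and 6.06% (2.81% to 12.6%) for the cerebrum, both intervals overlapped those of Unc5d, and Unc5c came before Ntn1 in the cerebellum order. Over the coding genes with a listed site the share was 5.19% and 8.85%.

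**Figure D3:**
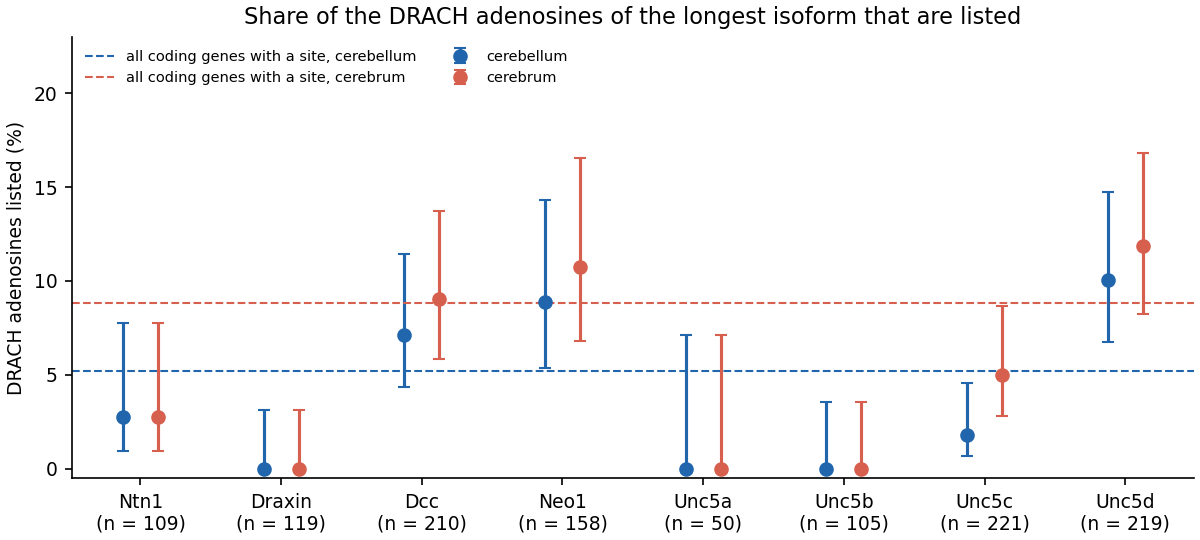
Share of the DRACH adenosines of the longest isoform that were listed (vertical axis, percent) for each of the 8 genes in the cerebellum (blue) and the cerebrum (red), with 95% Wilson intervals and the number of DRACH adenosines under each name. Dashed lines give the share over all coding genes with a listed site, 5.19% and 8.85%, and Draxin, Unc5a and Unc5b are at 0.

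Listed shares of DRACH motifs differed with position in the transcript. On the isoforms with the longest coding sequence, the 8 genes had 1069 DRACH adenosines, of which the cerebellum listed 5.33% and the cerebrum 6.64%. Within 100 nt of an exon junction, 7 of 418 (1.67%, 0.814% to 3.42%) and 8 of 418 (1.91%, 0.973% to 3.73%) were listed. Beyond 100 nt it was 50 of 651 (7.68%, 5.87% to 9.98%) and 63 of 651 (9.68%, 7.64% to 12.2%). In coding genes with a listed site, the shares were 1.02% and 2.07% within 100 nt and 7.78% and 13.1% beyond. That set leaves out genes without a site, whereas the 8 genes include Draxin, Unc5a and Unc5b. Under the same condition, the 5 guidance genes with a site had 2.20% and 2.52% within 100 nt. Beyond 100 nt they had 10.5% (8.04% to 13.6%) and 13.2% (10.5% to 16.5%). Exons before the last, first exons included, are mostly short in the 8 genes. Of their 395 DRACH adenosines within 100 nt of a junction only 3 (cerebellum) and 4 (cerebrum) were listed, against 5 and 8 of the 73 farther away. The low share near junctions was not seen in the last exons, where 4 of 23 near a junction were listed in each library (17.4%, 6.98% to 37.1%), against 45 of 578 (7.79%) and 55 of 578 (9.52%) farther away. The same 4 were listed in both, the Dcc site in the stop codon and the Neo1 sites at -36, -25 and 15 nt. Nearness to the junction and nearness to the stop codon thus cannot be told apart in these last exons. Within 200 nt of the junction, the last exons had 11 of 50 listed in the cerebellum (22.0%, 12.8% to 35.2%) and 12 of 50 in the cerebrum (24.0%, 14.3% to 37.4%), against 6.90% and 8.53% beyond.

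The 5 genes with an exonic DRACH site were set beside all coding genes with one, a condition that both share. In the cerebellum 10.5% of their 3′ UTR motifs were listed (7.88% to 13.8%), in the cerebrum 12.7% (9.80% to 16.3%), and all coding genes 6.47% and 10.8%. Their coding sequences had 3.08% (1.73% to 5.43%) and 4.48% (2.78% to 7.16%), and all coding genes 4.47% and 7.90%. In the cerebrum the coding share of these 5 genes was thus lower than that of all coding genes, beyond its counting interval. The 3′ UTR share depended on the isoform of Unc5c: on the longest isoforms the cerebellum listed 44 of 529 (8.32%, 6.25% to 11.0%), an interval that includes the 6.47%. Within 200 nt of the stop codon, 12 and 17 of 59 DRACH adenosines were listed (20.3% and 28.8%).

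**Figure D4:**
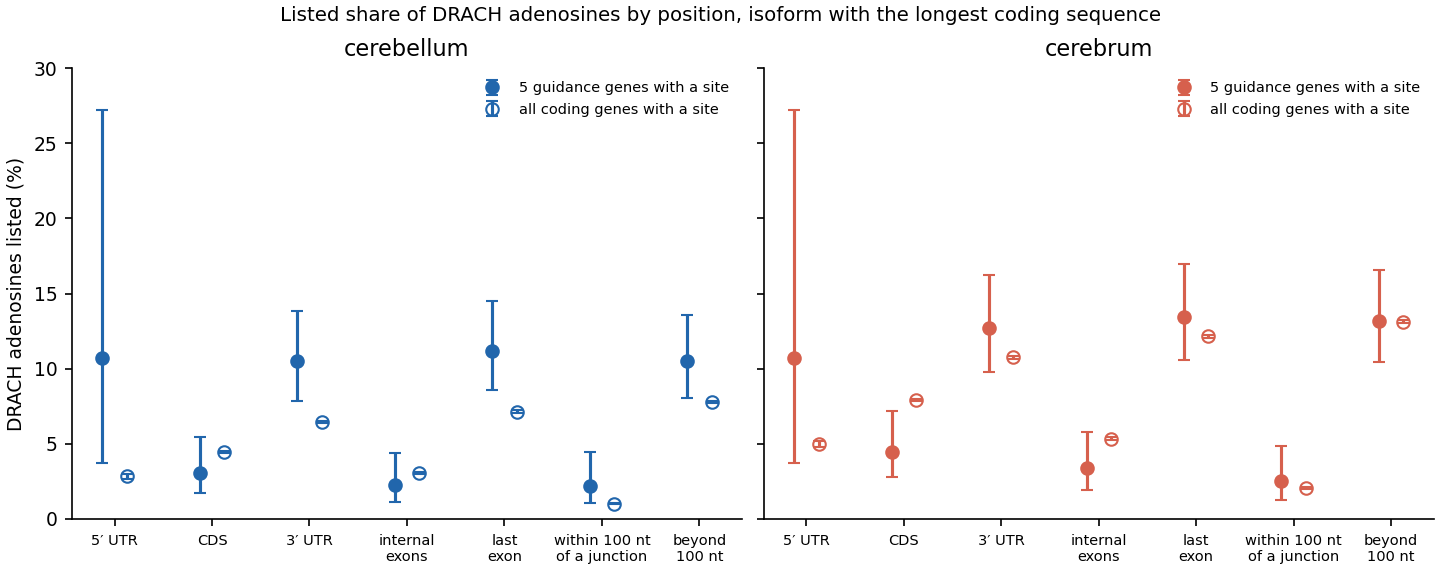
Share of DRACH adenosines listed (vertical axis, percent) by transcript region, exon class and distance from an exon junction, in the cerebellum (left) and the cerebrum (right), on the isoform with the longest coding sequence. Internal exons are all exons before the last, first exons included. Filled circles are the 5 guidance genes with an exonic DRACH site, open circles all coding genes with one, and bars are 95% Wilson intervals, with a lower share near junctions than far from them in both sets over all exons.

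The tissues had most exonic DRACH sites in common and few intronic sites. Of the exonic DRACH sites of the 8 genes, 46 were in both libraries, which is 79.3% of the 58 in the cerebellum (67.2% to 87.7%) and 60.5% of the 76 in the cerebrum (49.3% to 70.8%). Over all coding genes these shares were 83.6% and 49.0%. Neo1 shared 13 of 14 and 17, Dcc 13 of 15 and 19, Unc5d 16 of 22 and 26, Unc5c 3 of 4 and 11, and Ntn1 1 of 3 and 3. Outside DRACH, 6 of 18 and of 50 exonic sites were shared, and in introns 6 of 96 (6.25%) and of 379 (1.58%). Intronic sites of coding genes of at least 300 kb were also seldom shared, 12.2% of those of the cerebellum and 3.94% of those of the cerebrum.

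By counts, 4 of the 5 genes had more exonic DRACH sites in the cerebrum (Dcc, Neo1, Unc5c and Unc5d), and Ntn1 had the same number in both. Among all 9733 coding genes with an exonic DRACH site in either library, 81.2% had more in the cerebrum, which has the longer list, so the share of the guidance genes is near the background. As a share of all exonic DRACH sites of the library, only Unc5c was larger in the cerebrum, with 9.05 per 100000 in the cerebellum and 14.6 in the cerebrum. Unc5d had 49.8 and 34.4 per 100000, Dcc 33.9 and 25.2, Neo1 31.7 and 22.5, and Ntn1 6.79 and 3.97. Over all coding genes, 58.3% had the larger share in the cerebrum. With all exonic sites counted, DRACH or not, 7 of the 8 genes had more in the cerebrum. Of these, Unc5a and Unc5b had only 2 and 1 exonic sites, all in the cerebrum. The matching share over all coding genes was not counted, and the cerebrum has the longer list.

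Introns held the largest class of sites, 96 cerebellum and 379 cerebrum positions, which were unlike the exonic ones in motif and overlap. DRACH motifs made up 8 of the 96 and 29 of the 379, and 16.2% and 13.3% of the intronic sites of coding genes of at least 300 kb. Dcc held 53 and 182 intronic sites, Unc5d 34 and 123, Unc5c 7 and 53, Neo1 1 and 19, and Ntn1 1 and 1. Per 100 kb of intron that was 4.88 and 16.7 in Dcc, 6.03 and 21.8 in Unc5d, 1.94 and 14.7 in Unc5c, and 0.648 and 12.3 in Neo1. Among 546 coding genes of at least 300 kb the median was 0.910 and 3.17 per 100 kb. Of these, 396 held an intronic site in the cerebellum and 456 in the cerebrum. Genes without one are included in the median and in the ranks that follow, unlike in the exonic ranks above. Unc5d lay above 89.4% and 88.1% of these long genes, Dcc above 86.8% and 84.8%, and Unc5c above 66.3% and 82.1%.

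Within the long receptor genes, the intronic sites gathered in intron 1. In Dcc, intron 1 of 395.281 kb makes up 36.4% of the intron length and held 45 of 53 intronic sites of the cerebellum library (84.9%, 72.9% to 92.1%) and 138 of 182 of the cerebrum library (75.8%, 69.1% to 81.5%). In Unc5d, intron 1 of 327.731 kb, or 58.1% of the intron length, held 30 of 34 (88.2%) and 113 of 123 (91.9%). In Unc5c, intron 1 of 212.149 kb, or 58.9%, held 5 of 7 and 40 of 53 (75.5%). Over Dcc, Unc5c and Unc5d together this was 85.1% (76.5% to 90.9%) and 81.3% (76.9% to 85.0%), with 46.5% of the intron length. Over coding genes of at least 300 kb, intron 1 held 33.9% and 29.2% of the intronic sites with 22.4% of the intron length.

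Inside intron 1 the sites lay towards its 5′ end. Upstream of the intron's midpoint were 65 of 80 intron 1 sites of the 3 genes for the cerebellum (81.3%, 71.3% to 88.3%) and 208 of 291 for the cerebrum (71.5%, 66.0% to 76.4%), where the long coding genes had 65.6% and 63.8%. Neo1, whose intron 1 is 45.457 kb, showed no such gathering, with 5 of 19 cerebrum sites in intron 1. Some intronic positions fall in other annotated transcripts on the same strand. In Unc5d, 6 sites lay in Svet1, a transcript from intron 1 of Unc5d that is known as a marker of the subventricular zone, all 6 in the cerebrum library and 1 of them also in that of the cerebellum. A further 4 lay in Gm45652 and 1 in Gm9911, and 3 of Unc5c lay in Gm43826, all in the cerebrum only.

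**Figure D5:**
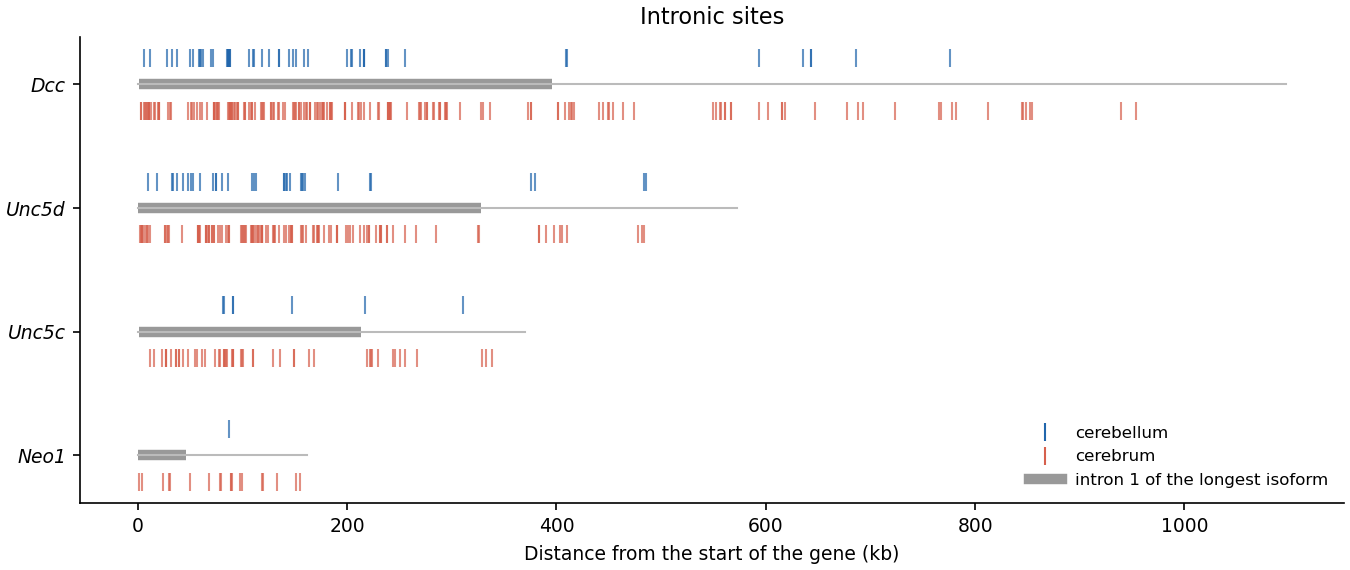
Intronic sites of Dcc, Unc5d, Unc5c and Neo1 by distance from the start of the gene in kb (horizontal axis), with the cerebellum above each gene line in blue and the cerebrum below it in red. The grey bar is intron 1 of the longest isoform, which holds 138 of the 182 cerebrum sites of Dcc and 113 of the 123 of Unc5d.

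The sequence around the sites differed between the classes. Of the 88 exonic DRACH sites in either library, 14 were GGACT, 11 AAACT, 11 TGACT, 10 AGACT and 9 GAACT, and 3 lay in sequence masked as repeat. Of the 433 intronic sites outside DRACH, 86 (19.9%) lay in masked repeats and 70 (16.2%) at the A of ATC, and TCATC was the most frequent 5-mer with 13. Among these, 17 pairs of sites of the same gene were exactly 6 nt apart, while none were 5 or 7 nt apart. No exonic site outside DRACH lay at ATC, of 62. The same counts were not made over the intronic sites of other genes, so none is shown to be particular to the guidance genes. How the intronic calls arose was not tested.

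Of the 627 sites, 3 had no A in the C57-based mm10 sequence, and all of these had G. They were an intron 1 site of Dcc in the cerebellum, an intron 11 site of Unc5c in the cerebrum, and a site of Unc5d in the cerebrum, 3971 nt after the stop codon in the 3′ UTR. With A in the middle the 5-mer of the Unc5d site is GGACT, a DRACH motif, and it was counted here as outside DRACH by its mm10 letters. The calls were made on mm10 and on a PWK version of it, and the paper states that the latter could detect adenosines specific to PWK. The lists do not name the genome behind each call.

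The UNC5 receptors share 47.6% to 65.5% of their aligned residues in pairs, Unc5b and Unc5c being closest and Unc5a and Unc5d farthest. Their 9 coding DRACH sites gave 21 aligned positions in a paralog. At 2 of the 21 the paralog also had a DRACH motif, both for the Unc5c site in codon 215, which has the motif in Unc5b and in Unc5d, and at none of the 21 was the paralog's base listed. That none was listed says little, since the other aligned bases lack the motif and Unc5a and Unc5b had no listed DRACH site.

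A list of 38 further genes of netrin signalling was counted in the same way, covering other netrins, netrin-G proteins and their ligands, FLRT and RGM ligands, and cytoplasmic effectors. The cerebellum listed an exonic DRACH site for 31 of these genes and the cerebrum for 35, including the same 31, and Dock1, Ntn5 and Vasp had none. Over all coding genes 35.4% and 45.5% had such a site. More were in the cerebrum for 26 genes, more in the cerebellum for 4, and 5 were equal, where the coding genes with a site had more in the cerebrum for 81.2%, more in the cerebellum for 7.75% and equal numbers for 11.0%. As a share of all exonic DRACH sites of the library, 20 of the 38 genes, which include the 3 without a site, had more in the cerebellum. Among the 9733 coding genes with a site in either library, 58.3% had the larger share in the cerebrum. The median gene had 7.5 cerebellum and 9.5 cerebrum sites, so Unc5d, Dcc and Neo1 lay above the median of the list and Ntn1 and, in the cerebellum, Unc5c below it. The 5 genes with the most were Lrrc4c, the netrin-G1 ligand, with 40 and 53 sites, Trim67, a ubiquitin ligase that binds DCC, with 32 and 47, Ntng1, which encodes netrin-G1, with 39 and 31, Flrt2, a ligand of UNC5 receptors, with 22 and 42, and Trio, an exchange factor downstream of DCC, with 25 and 34. Of the secreted netrins on the list, Ntn3 had 0 and 3, Ntn4 0 and 1, and Ntn5 none, low numbers like those of Ntn1.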

How the data were processed

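GLORI data of 1 cerebellum and 1 cerebrum library were used; the m6A-seq data were not analysed here. The authors ran GLORI-tools against mm10 and PWK-mm10, took the union for each library, and retained positions with a rate over 0.1 supported by more than 8 reads. The deposited lists give the genomic position and strand of each retained site. Positions were looked up in GRCm38 (RefSeq sequence) and GENCODE M21 with Python 3.11.15, pysam 0.24.0 and samtools 1.23.1. Exonic sites were assigned to the longest covering isoform that is complete and has UTRs at either end. Translated coding sequences were aligned with mafft 7.526. Figures used matplotlib 3.10.9. Steps were tested on simulated sites. Depth is unknown. No test between tissues was possible. The genes and lists were chosen with earlier results of these data known. Named were all 8 genes, the 5 listed pathway genes with the most exonic DRACH sites, and sequences of up to 3 shared sites nearest to the stop codon per gene; others were named after their values were seen. Sequences on chromosome 18 are not reported here. Alternatives changed the isoform, windows, motif, repeats, overlap and single genes.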

Additional observations from a re-analysis of the deposited data

How the results depend on the processing

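On exons of the genes' transcripts only, 79 sites remained of 175 in the cerebellum and 132 of 511 in the cerebrum, and the DRACH share was 73.4% and 57.6% in place of 37.7% and 20.5%. Among DRACH sites only, 71.2% of the cerebellum and 44.8% of the cerebrum sites were in the other library, against 33.7% and 11.5% of all. Without Dcc, the gene with the most sites, the cerebellum values were 42.6% shared and 46.5% in DRACH. A window of 400 nt around the stop codon held 34.5% of the exonic DRACH sites of the cerebellum, against 20.7% within 200 nt. More sites in the cerebrum were found for 7 genes with all exonic sites and for 1 gene by share of the library, against 4. The count of 7 has no share over all coding genes beside it. The listed share of DRACH adenosines was 3.90% and 5.11% over the union of exons and 4.12% and 5.29% without Unc5d, against 5.33% and 6.64%. Within 200 nt of a junction it was 3.03% and 3.84%, against 1.67% and 1.91% within 100 nt, and beyond 200 nt 7.32% and 9.06%, so near and far shares came closer. The longest isoform, an alternative chosen after seeing the data, gave 4.87% and 6.38% listed. The 3′ UTR share, between 68.4% and 76.0% under every alternative tried, moved by less than its counting interval. No paired analysis was possible because each tissue has 1 library. Depth, unknown here, limits every absence.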
